A study of Mus musculus with 24 samples.

Results

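Igf1, the gene of insulin-like growth factor 1, and the 7 genes of the IGF-binding proteins, Igfbp1 to Igfbp7, were examined in mouse embryonic stem (ES) cells that had been differentiated with or without a pair of nuclear receptors of the clock, REV-ERBα and REV-ERBβ. The genes were chosen by symbol, and all 8 were found, each in 1 row of the 33079 genes of the expression table. The 24 libraries came from poly(A) RNA of Per2Luc knock-in cells differentiated as embryoid bodies to day 28, treated with 100 nM dexamethasone and frozen every 4 h between 12 and 56 h after it. The control cells (WT) carried the Per2Luc reporter alone, whereas the double-knockout cells (KO) also lacked targeted exons of Rev-erbα and Rev-erbβ. Each genotype had 12 libraries, 1 per time point, each a pool of embryoid bodies, and the KO cells were a line made by targeting Rev-erbα in cells that already lacked Rev-erbβ. Genotype and cell line therefore cannot be told apart, no library was left untreated with dexamethasone, and p-values measure the spread among time points of 1 culture series per genotype.

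IGF1 is a secreted growth factor that acts through the IGF1 receptor, a tyrosine kinase related to the insulin receptor. In body fluids most IGF is held by IGF-binding proteins, which lengthen its life and limit its access to the receptor until proteases such as pappalysin release it. Igf1 is made mainly by liver in the animal and also by macrophages and mesenchymal cells, and Igfbp1 is a liver and decidua product known for its repression by insulin and its induction by glucocorticoids. IGFBP7 binds IGFs only weakly and is also counted as an IGFBP-related protein.

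In GRCm38 coordinates, Igf1 (uc007gqv.3) spans chr10:87859052-87937047 and Igfbp1 (uc007hzh.2) spans chr11:7197787-7202546, both on the plus strand. Igfbp3 (uc007hzi.2, minus strand) lies beside Igfbp1 at chr11:7206091-7213923, and Igfbp4 (uc007lie.1, plus) farther along at chr11:99041260-99052643. Igfbp2 (uc007bkw.2, plus) and Igfbp5 (uc007bkx.1, minus) lie at chr1:72824480-72852471 and chr1:72858065-72874865. Igfbp6 (uc011zzz.1, plus) is at chr15:102144186-102149512 and Igfbp7 (uc008xwf.2, minus) at chr5:77349240-77408045.

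The level of a gene is given as RPKM, in which the fragments on its exons are divided by exonic length and by the library total, so that levels can be compared between genes. Each library held between 6183500.5 and 10287969 fragments on exons (read pairs, with a pair member counted as 0.5). The median correlation of a library with others of its genotype was 0.970 to 0.982 over 12243 genes, and no library stood apart by that measure. It says little of cell make-up, as summed neuron markers ran from 3.79 to 36.0 RPKM in WT and from 2.19 to 12.1 in KO. Gene-level values of the targeted genes also hold the exons outside the deletions and so check nothing: Nr1d1 (Rev-erbα) was listed at 3.58 to 7.48 RPKM in WT and 2.48 to 9.74 in KO, and Nr1d2 (Rev-erbβ) at 0.895 to 3.02 and 1.38 to 5.27. Arntl (Bmal1), a textbook target of REV-ERB repression, had the higher value in KO at each of the 12 time points.

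Stretches of promoter of Igf1 and Igfbp1, the members with the largest differences between the genotypes, are shown first. RefSeq holds 9 promoter windows of GRCm38.p6 for the 8 genes, each from 250 bases before to 50 bases after a start site. They were searched on both strands for the REV-ERB and ROR half-site AGGTCA, the clock E-box CACGTG, the glucocorticoid element ACANNNTGT, the NF-Y box CCAAT, and 2 forms of the insulin response sequence of Igfbp1, TGTTTTG and TATTTTG, which FOXO factors bind and which were added after the values were seen. AGGTCA occurred among the members in the Igf1 window alone, beginning 161 bases before the RefSeq start site of that window, and in 16.3% of all 32851 promoters. The first line below is 30 bases around it, at chr10:87860938-87860967 on the plus strand, with AGGTCA in capitals. The second is the Igfbp1 promoter from 250 to 11 bases before its start site, at chr11:7197537-7197776 on the plus strand, with both insulin response sequences in capitals, the first of them read from the minus strand.
Igf1: ctcagggaagagAGGTCAgctgcctagagc
Igfbp1: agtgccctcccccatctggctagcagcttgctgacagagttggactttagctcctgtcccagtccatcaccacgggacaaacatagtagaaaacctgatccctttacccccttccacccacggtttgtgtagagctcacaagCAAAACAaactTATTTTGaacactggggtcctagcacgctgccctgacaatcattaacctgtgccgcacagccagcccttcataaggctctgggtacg

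The Igf1 stretch lies inside untranslated exons of longer annotated Igf1 transcripts. It also lies within the span of the measured Igf1 row, which begins upstream of it at chr10:87859052. It is therefore not a stretch before the start of that row. Among all promoters 6.28% held TGTTTTG, 4.36% held TATTTTG and 0.472% held both, and Igfbp1 was the only member with either. Because these forms are the known insulin response sequence of Igfbp1, its match to both was fixed in advance and is no finding. CACGTG was in 1 window of Igfbp2 (7.15% of all promoters), CCAAT in those of Igf1 and Igfbp6 (37.4%), and ACANNNTGT in none (6.85%). These matches describe the letters in the windows and are not evidence of binding. For the glucocorticoid element only the exact form ACANNNTGT was searched, so the windows may hold other forms of it.

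All 8 members were transcribed in both genotypes, over a wide range of levels. In WT the order by mean was Igfbp7 (225 ± 19.7 RPKM, SD, n = 12), Igfbp3 (208 ± 11.5), Igfbp4 (110 ± 8.78), Igfbp2 (71.0 ± 14.2), Igfbp6 (15.0 ± 2.73), Igfbp5 (12.2 ± 3.06), Igfbp1 (11.3 ± 9.50) and Igf1 (2.86 ± 0.263). The same order was found in KO. Between neighbors, Igfbp3 and Igfbp4 did not overlap in either genotype, nor did Igfbp2 and Igfbp6. The ranges of Igfbp7 and Igfbp3 overlapped, as did those of Igfbp4 and Igfbp2, of Igfbp6 and Igfbp5, and of Igfbp5 and Igfbp1. Igfbp1 and Igf1 were apart in WT, with Igfbp1 higher in 12 of 12 libraries, and overlapped in KO, with Igfbp1 higher in 6 of 12.

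Summed over Igfbp1 to Igfbp7, the binding proteins reached 652 ± 36.1 RPKM in WT and 691 ± 51.4 in KO. Igfbp3, Igfbp4 and Igfbp7 together took 83.2% ± 2.06 of that sum in WT and 82.8% ± 1.91 in KO. Igfbp3 codes for the main carrier of IGF in serum and Igfbp4 for an inhibitory binding protein that pappalysin cleaves. The share of Igfbp1 was 1.74% ± 1.45 in WT and 0.729% ± 0.698 in KO. Message is not protein, and these shares say nothing of the amounts secreted.

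**Figure D1:**
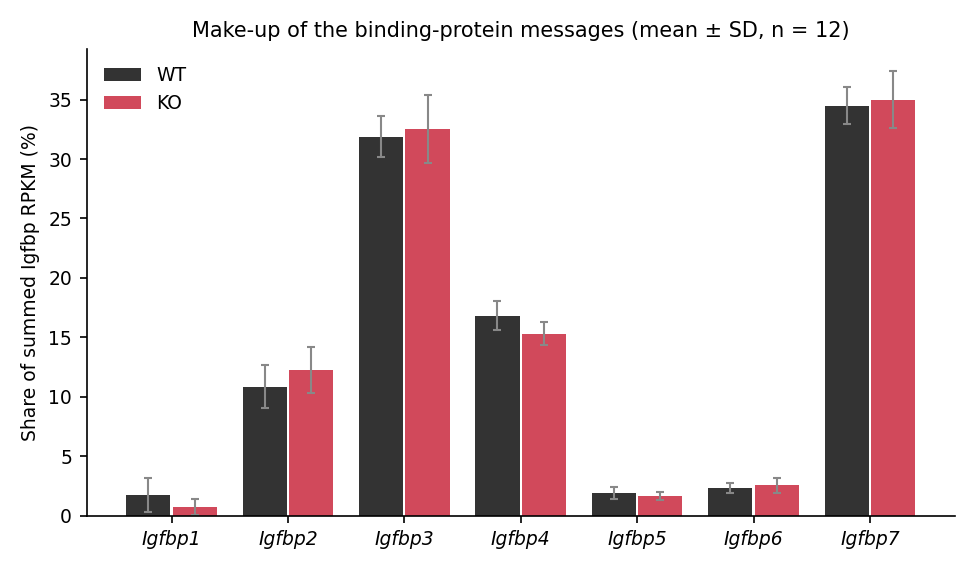
Share of the summed Igfbp1 to Igfbp7 RPKM held by each gene (vertical axis, percent) in WT (dark) and KO (red), with bars for the mean and error bars for the SD over 12 libraries per genotype. Igfbp7 and Igfbp3 each hold about the same share in both genotypes, 34.5% and 31.9% in WT and 35.0% and 32.5% in KO.

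KO was compared with WT to ask whether the loss of both receptors goes with another level of the IGF1 system. Igf1 was higher and Igfbp1 lower in KO, and the other 6 members did not pass the test. Levels were tested with limma on log2(RPKM + 0.1) over 15112 genes, and a gene was called at a Benjamini-Hochberg adjusted p under 0.05. Fold changes are on that scale, which slightly understates those of low genes. Of all genes tested, 26.3% were called, 11.5% higher and 14.7% lower in KO, so that 2 of 8 members is about the share of the whole table. The median difference of the members was 0.10 on the log2 scale, against -0.01 over all genes tested.

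Igf1 in WT was 2.27, 2.90, 2.78, 2.97, 2.79, 2.58, 2.75, 2.86, 3.08, 3.25, 3.19 and 2.86 RPKM from 12 to 56 h. In KO it was 3.93, 3.16, 4.10, 3.05, 3.78, 4.24, 3.33, 3.78, 3.82, 4.15, 2.85 and 2.42 RPKM. The WT libraries lay within a narrow band, 8 of the 12 KO libraries lay above the highest of them, and the 2 lowest KO libraries were those of the last 2 time points, where the order of the genotypes turned. The mean was 2.86 ± 0.263 in WT and 3.55 ± 0.579 in KO, a log2 difference of 0.29 ± 0.077 (SE; limma adjusted p = 0.00656). The call held with each of the 24 libraries left out in turn (adjusted p from 0.000628 to 0.0127), and each library held 280 to 641 fragments of Igf1. At 12 to 32 h alone the log2 difference was 0.43 (adjusted p = 0.0127), and at 36 to 56 h alone it was 0.15 (adjusted p = 0.370), while a test of the change in slope between genotypes gave an unadjusted p of 0.0577 and an adjusted p of 0.759. Of the 8 macrophage markers, all expressed, Adgre1 and C1qa were higher in KO and the other 6 did not pass, and the summed marker level was 343 to 423 RPKM in WT and 355 to 445 in KO. Of 8 fibroblast and stroma markers 4 were higher and 2 lower in KO, with sums of 2930 to 3455 and 3142 to 4097. Over all genes tested, 11.5% were higher and 14.7% lower. In bulk RNA more cells of a type cannot be told apart from more RNA per cell, and the part of these markers in the difference in Igf1 was not tested.

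Igfbp1 had the largest difference of the 8 and the largest spread. In WT it was 5.81, 36.0, 5.13, 3.75, 13.6, 9.17, 6.71, 24.4, 5.14, 9.17, 8.59 and 8.74 RPKM from 12 to 56 h. In KO it was 2.85, 14.3, 5.81, 2.37, 0.789, 0.643, 5.77, 2.21, 2.35, 4.58, 3.87 and 13.2 RPKM. The genotypes overlapped, with 6 of the 12 KO libraries below the lowest WT library, and KO was the lower at 10 of 12 time points, the exceptions being 20 and 56 h. The mean was 11.3 ± 9.50 in WT against 4.90 ± 4.47 in KO, with medians of 8.66 and 3.36. The fitted log2 difference was -1.39 ± 0.434 (SE; limma adjusted p = 0.0202). This was a larger absolute difference than that of 99.7% of the genes tested. The lowest library held 14 fragments of Igfbp1, so the low KO values carry a sizable counting error, and the call held with each library left out in turn (adjusted p from 0.00721 to 0.0366). With 6 time points per genotype the difference was -1.73 at 12 to 32 h (adjusted p = 0.150) and -1.04 at 36 to 56 h (adjusted p = 0.112).

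**Figure D2:**
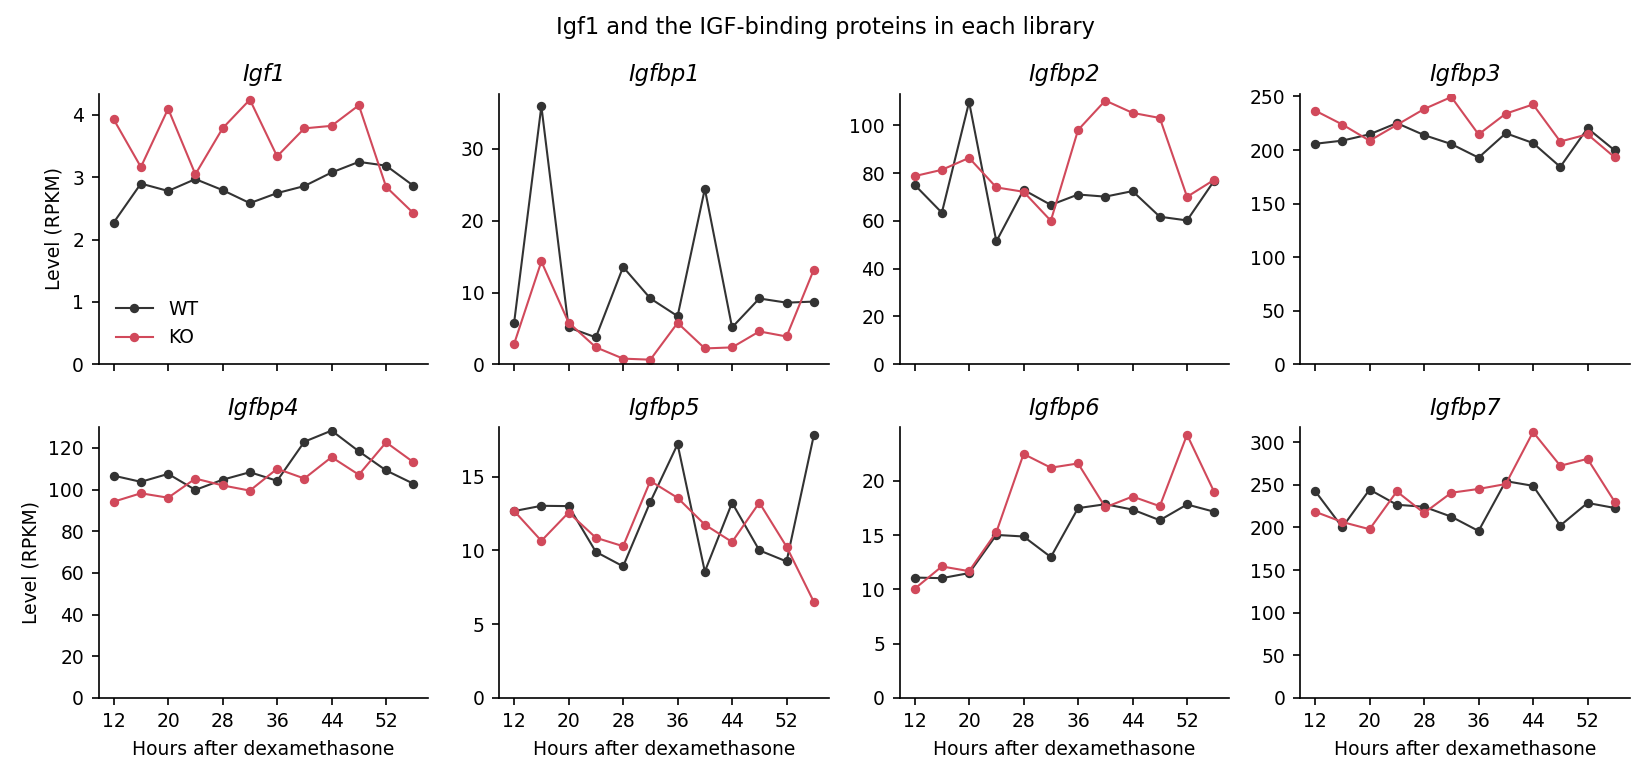
Level of each member (vertical axis, RPKM) against hours after dexamethasone (horizontal axis) in WT (dark) and KO (red), 1 point per library. Igf1 is higher in KO at 10 of 12 time points, Igfbp1 is lower in KO at 10 of 12 and peaks at 16 h in both genotypes, and Igfbp6 lies higher on the second day in both.

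The high Igfbp1 libraries were WT at 16 and 40 h and KO at 16 and 56 h, with the 28 h WT library between the KO ones. Markers of liver and yolk sac endoderm, the cells best known for this gene besides decidua, varied from library to library as well. The sum of the 7 measured markers, which include Afp, Alb and Ttr, ran from 109 to 1257 RPKM in WT and from 122 to 1294 in KO. It was 1257 in WT at 16 h, 1294 in KO at 16 h and 1273 in KO at 56 h. It was 229 in WT at 40 h, where Igfbp1 was high, and 994 in WT at 36 h and 703 in KO at 24 h, where Igfbp1 was 6.71 and 2.37. None of the 7 markers passed the test between the genotypes (lowest adjusted p = 0.345), and the mean sum was 406 ± 360 in WT and 414 ± 434 in KO.

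Peg10, an imprinted gene needed for the placenta, was the gene whose pattern was most like that of Igfbp1. Its correlation with Igfbp1 was 0.830 over the 24 libraries on the log2 scale, with genotype means taken out. Peg10 was 58.7 RPKM in WT at 16 h, 44.1 in WT at 40 h, 59.0 in KO at 16 h and 59.6 in KO at 56 h. It was also 47.8 and 46.8 in KO at 40 and 48 h, where Igfbp1 was low. Next came Tead4 (0.787), a trophoblast factor, and Stx3 (0.780), a syntaxin. A list of 11 trophoblast genes was drawn up after these values were seen. Its summed level was 122 in WT at 16 h and 127 in WT at 40 h, but also 122 and 130 in KO at 40 and 48 h, where Igfbp1 was 2.21 and 4.58. Of the 10 list genes tested, Hand1 was higher in KO and none lower, and the mean sum was 66.7 ± 35.0 in WT and 73.6 ± 29.8 in KO. On the log2 scale with genotype means taken out, the correlation of Igfbp1 was 0.565 with the trophoblast sum and 0.599 with the liver and yolk sac sum, over 24 libraries that share cultures and depth with it. The part of either cell type in the level of Igfbp1 was not tested.

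**Figure D3:**
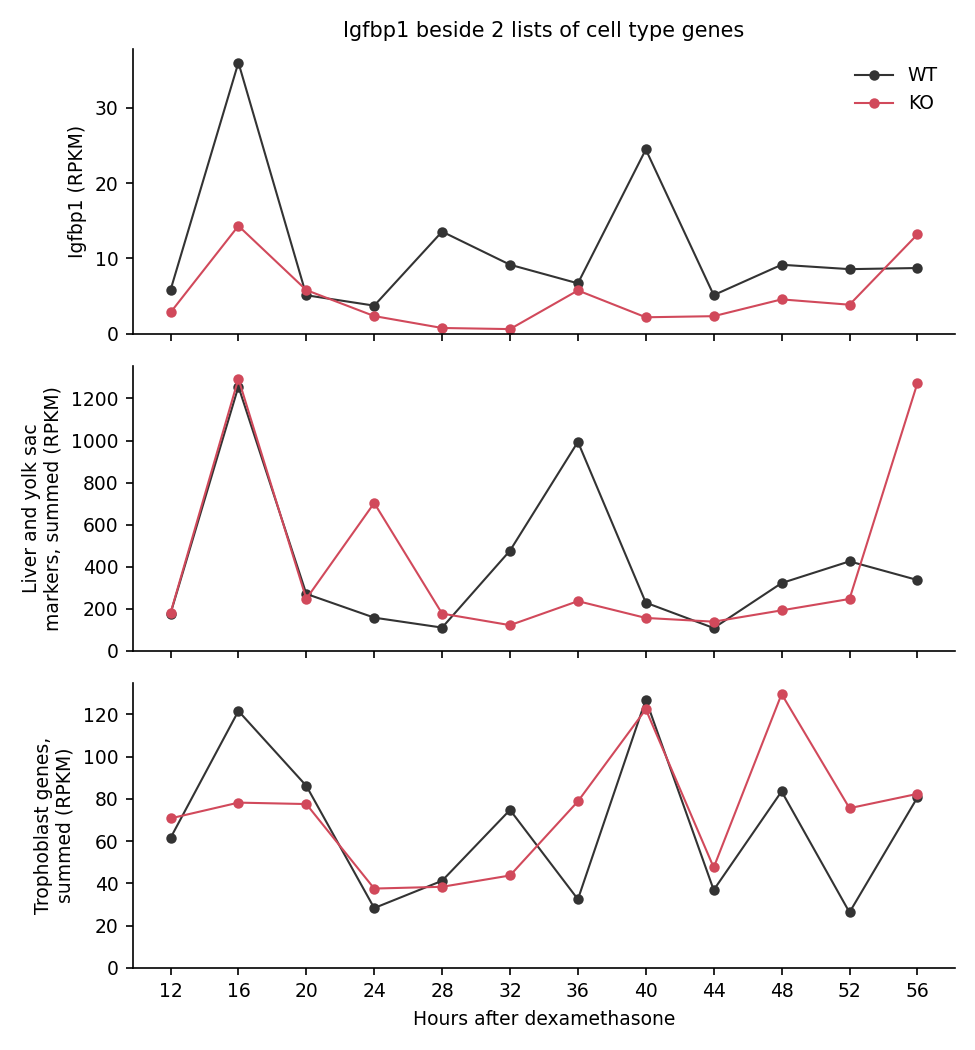
Igfbp1 (top), the summed liver and yolk sac markers (middle) and the summed trophoblast genes (bottom), each in RPKM, against hours after dexamethasone in WT (dark) and KO (red), 1 point per library. The WT and KO ranges overlap in each panel, from 3.75 to 36.0 and 0.643 to 14.3 RPKM for Igfbp1, 109 to 1257 and 122 to 1294 for liver and yolk sac, and 26.3 to 127 and 37.5 to 130 for trophoblast.

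Igfbp2 and Igfbp3 were the members closest to the threshold without passing it in the fit without time point as a block. Igfbp2, the binding protein of fetal serum, ran from 51.4 to 110 RPKM in WT with a median of 70.6, and from 60.0 to 110 in KO with a median of 80.0. The log2 difference was 0.25 ± 0.102 (SE; limma adjusted p = 0.0660), with KO higher at 9 of 12 time points. The difference was 0.07 at 12 to 32 h alone (adjusted p = 0.806) and 0.44 at 36 to 56 h alone (adjusted p = 0.0188). The limma test of the change in slope of Igfbp2 between genotypes gave an unadjusted p of 0.116 and an adjusted p of 0.814. Leaving out the WT library of 20 h, the highest in WT, or the KO library of 32 h, the lowest in KO, brought Igfbp2 past the threshold (adjusted p = 0.0111 and 0.0263).

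Igfbp3 ran from 184 to 225 RPKM in WT with a median of 208 and from 193 to 250 in KO with a median of 224. The log2 difference was 0.11 ± 0.040 (SE; limma adjusted p = 0.0505), 5 KO libraries lay above the highest WT library, and leaving out 1 library brought it past the threshold in 9 of 24 cases (WT at 20, 24, 40 or 52 h and KO at 20, 36, 48, 52 or 56 h), with adjusted p from 0.0156 to 0.0890. With quantile normalization the difference was 0.05 (adjusted p = 0.428).

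Igfbp1 and Igfbp3 are neighbors on chromosome 11, with 3544 bases between their convergent 3′ ends, and their differences have opposite signs. The other linked pair, Igfbp2 and Igfbp5 on chromosome 1, lies 5593 bases apart and is also convergent. Igfbp4 lies 265882 bases from Nr1d1, one of the targeted genes, on chromosome 11, and did not pass the test.

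Igfbp4, Igfbp5, Igfbp6 and Igfbp7 did not pass for level in the fit without time point as a block. Igfbp4 was 110 ± 8.78 RPKM in WT and 106 ± 8.50 in KO (log2 difference -0.05 ± 0.045, adjusted p = 0.406). Igfbp5, whose protein binds to extracellular matrix, was 12.2 ± 3.06 and 11.5 ± 2.13 (-0.08 ± 0.125, adjusted p = 0.675). Igfbp6, whose protein prefers IGF2, was 15.0 ± 2.73 and 17.6 ± 4.55, and 10 of 12 time points were higher in KO (0.20 ± 0.132, adjusted p = 0.275). Igfbp7, a matrix and vessel protein, was 225 ± 19.7 and 243 ± 32.9 (0.10 ± 0.064, adjusted p = 0.252).

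**Figure D4:**
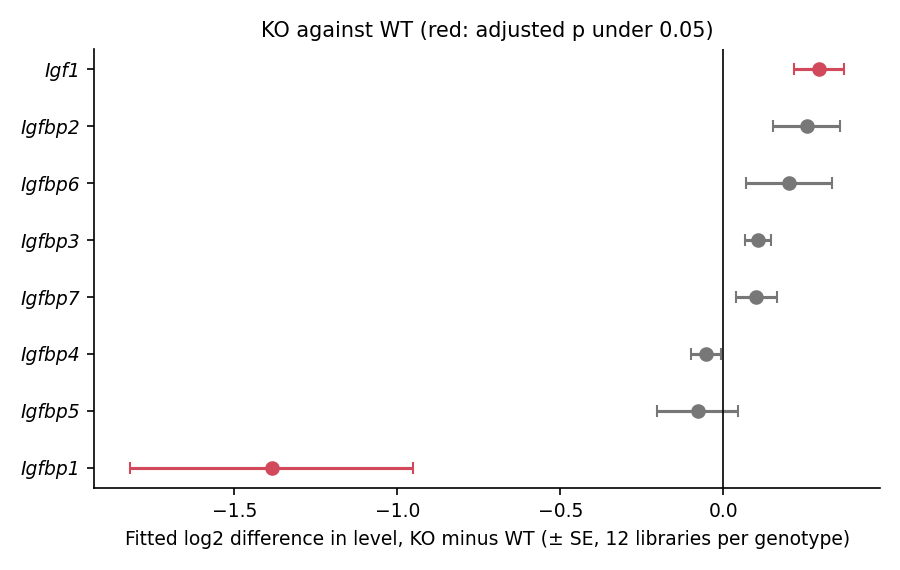
Fitted log2 difference in level between KO and WT (horizontal axis) for each member, with bars for the SE over 12 libraries per genotype and red for an adjusted p under 0.05. In this fit without time point as a block, Igf1 (0.29) and Igfbp1 (-1.39) are past the threshold, Igfbp3 and Igfbp2 are just short of it, and the others did not pass.

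Change along the 2 days was tested as a slope on the log2 scale, with a 24 h cosine curve fitted beside it. Igfbp4 rose in KO, Igfbp6 was the steepest of the members apart from the noisy Igfbp1, and no member passed for a difference in slope between the genotypes. In WT, 2.89% of all genes had a slope past the threshold and 0 of 8 members did. At an unadjusted p under 0.05 there were 15.7% of all genes and 2 of 8 members. In KO, 3.14% of all genes and 1 of 8 members passed, with 17.1% of all genes and 4 of 8 members at an unadjusted p under 0.05. For the difference in slope, 0.0% of all genes and 0 of 8 members passed, and 982 genes and 1 member (Igfbp7, unadjusted p = 0.0472) had an unadjusted p under 0.05.

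Igfbp4 in KO was 94.2, 98.2, 96.1, 105, 102 and 99.5 RPKM from 12 to 32 h and 110, 105, 116, 107, 123 and 113 from 36 to 56 h. The days did not overlap, although the libraries of 24 and 40 h were nearly equal. The slope was 0.16 ± 0.043 per 24 h (SE; limma adjusted p = 0.0415). In WT the first day ran from 99.8 to 108 RPKM and the second from 103 to 128, and the slope was 0.12 ± 0.043 (adjusted p = 0.172). The slopes did not differ between the genotypes past the threshold (unadjusted p = 0.438, adjusted p = 0.906). The call in KO was lost on leaving out any KO library but those of 24 and 48 h, or the WT library of 52 h, with adjusted p between 0.0322 and 0.115 over all 24 libraries left out in turn.

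Igfbp6 in WT was 11.1, 11.03, 11.5, 15.0, 14.9 and 13.0 RPKM from 12 to 32 h and 17.5, 17.8, 17.4, 16.4, 17.8 and 17.1 from 36 to 56 h. In KO it was 10.04, 12.1, 11.7, 15.3, 22.5 and 21.2 and then 21.6, 17.6, 18.6, 17.7, 24.2 and 19.0. The lowest 3 libraries of each genotype were those of 12 to 20 h, and in WT the days did not overlap. The slope was 0.41 ± 0.114 per 24 h in WT (SE; limma adjusted p = 0.0580) and 0.40 ± 0.114 in KO (adjusted p = 0.0631), and without the rhythm terms both passed (adjusted p = 0.0394 and 0.00838). Leaving out KO at 28 or 56 h, or for WT also KO at 12 or 36 h, brought the slopes past the threshold too, over ranges of 0.0293 to 0.140 in WT and 0.0163 to 0.298 in KO. The 2 genes most like Igfbp6 over the 24 libraries were Msln (r = 0.963), which codes for mesothelin of the mesothelial lining, and App (r = 0.927), the amyloid precursor gene. The next, Gm10791 (r = 0.923), is annotated as antisense and lies on the chromosome of App, so without strand its reads may be those of a neighbor. Msln went from 83.1 ± 11.7 on the first day to 96.7 ± 3.004 on the second in WT and from 72.4 ± 20.0 to 90.6 ± 9.81 in KO.

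**Figure D5:**
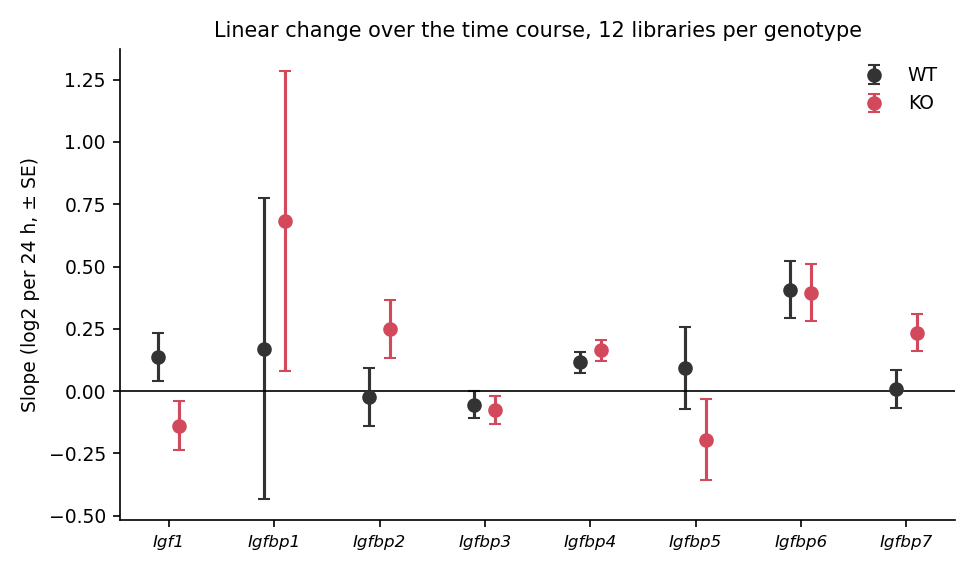
Fitted slope over the 12 time points (vertical axis, log2 per 24 h) of each member in WT (dark) and KO (red), with the SE. Igfbp6 has 0.41 and 0.40, Igfbp4 0.12 and 0.16, and the bars of Igfbp1 are far wider than those of the other members.

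Igfbp7 in KO was 198 to 242 RPKM on the first day and 230 to 312 on the second, with a slope of 0.23 ± 0.075 per 24 h (SE; limma adjusted p = 0.102), against 0.01 ± 0.075 in WT (adjusted p = 0.975). Without the KO library of 56 h the KO slope passed (adjusted p = 0.0445). The unadjusted p of the difference in slope was 0.0472 and the adjusted p 0.755. Igfbp2 in KO had a slope of 0.25 ± 0.117 (adjusted p = 0.281) and Igf1 one of 0.14 ± 0.097 in WT and -0.14 ± 0.097 in KO, none past the threshold.

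No member had a 24 h rhythm past the threshold. Of all genes, 0.0397% were called rhythmic in WT and 0.0794% in KO by the limma F test, and 0.0% differed in rhythm, with 1243, 1268 and 745 genes at an unadjusted p under 0.05. Among the members, 0 of 8 passed in each test, and at an unadjusted p under 0.05 there was Igfbp4 in WT (p = 0.0249, adjusted p = 0.546) and Igfbp2 in KO (p = 0.00758, adjusted p = 0.432). The fitted amplitude of Igfbp2 in KO was 0.33 on the log2 scale, with 81.3, 86.3 and 74.0 RPKM at 16 to 24 h and 110, 105 and 103 at 40 to 48 h. A rank test of the JTK_CYCLE kind called no gene in either genotype at an adjusted p under 0.05, with 424 genes in WT and 402 in KO at an unadjusted p under 0.05 and no member among them. The Igfbp1 peaks at 16 and 40 h in WT are 24 h apart and rested on 1 library each. Its fitted amplitude in WT was 0.49 (p = 0.596).

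The members did not move as a group across the libraries. The closest pairs were Igfbp4 with Igfbp7 (r = 0.631) and with Igfbp6 (r = 0.580), and the most opposed was Igfbp1 with Igfbp3 (r = -0.515), on the log2 scale with genotype means taken out, over 24 libraries. In WT alone the correlation of Igfbp1 with Igfbp3 was -0.02, and in KO it was -0.78. Igfbp7 was most like Cebpb (0.826) and Cebpd (0.812), which code for transcription factors of the C/EBP family, and Igfbp3 most like Timp1 (0.837), an inhibitor of metalloproteases. Igf1 was most like Rnf217 (0.836), a ubiquitin ligase gene, Igfbp2 like Srsf9 (0.857), a splicing factor gene, Igfbp4 like Tcn2 (0.834), a vitamin B12 carrier gene, and Igfbp5 like Plxnb1 (0.823), a semaphorin receptor gene.

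The rest of the IGF pathway was read from lists of ligands, receptors, proteases and signal relay genes. The counts in each list stand beside 26.3% of all genes called, 11.5% higher and 14.7% lower in KO. Of 5 tested genes among the other ligands, receptors and carriers, Igf1r, Insr and Insrr fell in KO and none rose. Igf1r, the receptor through which IGF1 acts, was 4.73 ± 0.408 RPKM in WT and 4.15 ± 0.282 in KO, lower at 11 of 12 time points (log2 difference -0.18 ± 0.046, limma adjusted p = 0.00433). Insr, the insulin receptor, was 5.36 ± 0.427 and 4.85 ± 0.270 (-0.14 ± 0.040, adjusted p = 0.0131). Insrr, its orphan relative, was below 1 RPKM in both. Igf2, the fetal IGF, was by far the most abundant message of the system, with 3289 ± 178 RPKM in WT and 3263 ± 179 in KO (-0.01 ± 0.054, adjusted p = 0.898). Igf2r, the receptor that clears IGF2, was 49.0 ± 5.34 and 50.6 ± 3.99 (0.05 ± 0.055, adjusted p = 0.548). Ins1, Ins2 and Igfals, the carrier subunit of serum complexes, were too low to be tested.

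Among the 8 genes tested of the proteases that cut binding proteins and their inhibitors, Adam28 rose and Pappa and Stc1 fell. Pappa, the protease of Igfbp4, was 1.91 ± 0.241 RPKM in WT and 1.43 ± 0.139 in KO, lower at 11 of 12 time points (-0.39 ± 0.066, limma adjusted p = 0.000147). Stc1, a stanniocalcin that inhibits pappalysin, was 6.95 ± 0.912 and 5.64 ± 1.22 (-0.32 ± 0.099, adjusted p = 0.0197). Adam28 was 0.394 ± 0.119 and 0.667 ± 0.344 (adjusted p = 0.0380) in the tested one of its 2 rows. The most abundant of the list, Htra1 and Adam9, did not pass (73.2 ± 8.67 and 82.2 ± 12.6 for Htra1, 42.5 ± 2.09 and 44.1 ± 2.40 for Adam9).

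In the signal relay list, 3 of 7 genes fell and none rose. Grb10, an imprinted adaptor that restrains the insulin and IGF1 receptors, was 52.9 ± 3.84 RPKM in WT and 2.29 ± 0.271 in KO, lower at 12 of 12 time points with no overlap (log2 difference -4.48 ± 0.053, limma adjusted p = 1.9e-28). Foxo1 and Foxo3, factors held out of the nucleus by insulin and IGF signaling, were 4.37 ± 0.427 and 14.7 ± 1.28 in WT and 3.96 ± 0.288 and 12.6 ± 1.22 in KO (adjusted p = 0.0439 and 0.00348). Irs1, Irs2, Irs4 and Grb14 did not pass.

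Other genes with an IGFBP-like domain include those of the CCN family, which code for matrix-associated proteins. Of the 10 tested, Cyr61, Ctgf, Nov, Wisp2 and Esm1 rose in KO and Igfbpl1 and Kazald1 fell. Nov was 1.27 ± 0.288 RPKM in WT and 2.60 ± 0.600 in KO, higher at 12 of 12 time points (0.97 ± 0.12, limma adjusted p = 3.14e-06). Cyr61 and Ctgf, the most abundant, were 62.2 ± 4.04 and 52.7 ± 5.01 in WT and 69.7 ± 3.07 and 62.1 ± 3.55 in KO (adjusted p = 0.000550 and 0.000318). Igfbpl1 was 0.623 ± 0.462 and 0.239 ± 0.359 (adjusted p = 0.0186). Among markers of other cells, 4 of 7 endothelial and 5 of 7 smooth muscle genes were higher and 5 of 7 neuron genes lower in KO. Of 7 striated muscle genes 4 were higher and 1 lower, and of 5 tested cartilage and bone genes 1 was higher. Over all genes tested, 11.5% were higher and 14.7% lower. The part of these cell types in these levels was not tested.

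Of the 3 Igf2 mRNA-binding proteins, which despite the similar name bind RNA and not IGF, Igf2bp2 fell from 12.2 ± 0.721 RPKM to 11.1 ± 0.631 (limma adjusted p = 0.00359), and Igf2bp1 and Igf2bp3 did not pass. Among 7 glucocorticoid-responsive genes Zbtb16 and Sgk1 fell, from 8.82 ± 0.956 to 7.11 ± 0.728 and from 21.8 ± 1.83 to 17.9 ± 1.37 (adjusted p = 0.000694 and 0.000120). Tsc22d3 and Dusp1, the most abundant of them, were 43.3 ± 4.59 and 33.8 ± 2.97 in WT and 45.0 ± 6.25 and 33.6 ± 2.40 in KO (adjusted p = 0.605 and 0.939). The 3 pluripotent cell markers that could be tested did not pass.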

How the data were processed

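Per the labels and the paper's methods, reads were trimmed (Trimmomatic 0.36), aligned to GRCm38/mm10 (STAR 2.5.4b), filtered on mapping quality (SAMtools) and counted over exons of UCSC canonical genes (HOMER) by the authors, who deposited RPKM with exonic length (in bases, another deposited value) and library totals. The library kit does not mark strand, so overlapping genes may share reads. RPKM times length and total gave multiples of 0.5 fragment (tolerance 0.001) for 100% of values, and fragments served to describe depth only. No count test was used.

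Genes with a mean above 0.5 RPM in WT or KO were tested with limma 3.58.1 (R 4.3.3, trend, Benjamini-Hochberg) on log2(RPKM + 0.1) for level, slope and 24 h rhythm, tested on simulated data first. The rank test used periods of 20, 24 and 28 h. Likeness is Pearson's r over genes with a mean of at least 1 RPKM, the 3 most like per member, and correlations carry no p because libraries share cultures. Named genes were all members and, of the pathway lists, the genes past the threshold and the 2 most abundant. Lists of cell type markers are given by counts and sums, and the markers named in them only show what the list holds. Members and lists were chosen with earlier results of these data known. Promoters are from RefSeq (GRCm38.p6). Descriptions used Python 3.11.15, numpy 2.4.6, pandas 2.3.3 and matplotlib 3.10.9. Alternatives covered pseudocount, filter, scaling, time point as a block, 12 to 32 h or 36 to 56 h alone, period, trend and each library left out.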

Additional observations from a re-analysis of the deposited data

How the results depend on the processing

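Igf1 kept its call under 8 of 9 other settings and Igfbp1 under 7 of 9, and both with each library left out, a choice added after the data were seen. Of the 8 members, 2 passed for level. That number was 5 with the time point as a block (Igfbp2, Igfbp3 and Igfbp6 besides, adjusted p = 0.0395, 0.0321 and 0.0343), 1 at 12 to 32 h alone, 1 at 36 to 56 h alone and 2 to 4 with a library left out. The block moved no other count by over 1.5 times. It raised that of all genes called for level, 3970 without it, by less than 1.5 times. Libraries of 1 time point had a mean r of deviations of 0.138, against -0.012 for libraries of different time points. It was above 0.1 in 7 of 12 pairs, and whether the libraries are pairs is not settled. All genes called for level numbered 1331 at 12 to 32 h and 2072 at 36 to 56 h, against 3970, fewer libraries being fitted. They numbered 3445 to 4224 with a library left out. At 12 to 32 h the difference was 0.024 for Igfbp5 and -0.031 for Igfbp7 (log2), both uncalled. Among genes with a mean of at least 1 RPKM, Igfbp3 passed for level (adjusted p = 0.0470). With quantile normalization 1 member had a slope in WT and 0 in KO, the WT slope of Igfbp7 was -0.014, the difference in slope of Igfbp4 was -0.0014 and its KO slope did not pass (adjusted p = 0.135). With the slope alone, 1 member passed in WT and 2 in KO, and the WT slope of Igfbp7 was -0.0093. Without the 12 h libraries, 256 genes and 0 members had a slope in KO (Igfbp4, adjusted p = 0.102). With a library left out, slopes were called for 244 to 479 genes and 0 to 1 members in WT and for 191 to 529 genes and 0 to 2 members in KO, and the WT slope of Igfbp7 ran from -0.030 to 0.064. Rhythmic genes numbered 1 in WT and 0 in KO at 20 h, 0 and 0 at 28 h, and 0 and 0 by the rank test. A difference in rhythm was called for 1 gene without the trend and for 0 to 1 with a library left out. With a library left out, Igfbp3 passed for level in 9 of 24 fits and Igfbp2 in 2, and the KO slope of Igfbp4 was lost in 11, while that of Igfbp7 passed in 1. The causes of these changes were not tested. Depth limits Igfbp1 most, with 14 fragments in its lowest library, and 1 library per time point leaves no error for a single hour.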
